A study of Bos taurus with 18 samples.

Results

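Of the 36075 genes in the count table, 6 are described here: 5 transcription factors linked to inflammatory signalling (IRF1, CEBPD, MAFF, NFE2L3 and ARNTL2) and the early response gene IER3. They were chosen by name and read through the pairs of Ensembl identifiers and symbols in the study's lists of genes altered by rbCAPG. CEBPD, NFE2L3 and IER3 stood in the list for epithelial cells, and IRF1, MAFF, ARNTL2 and IER3 in the list for stromal cells. Those lists were made from the same samples by adjusted p and fold change. The direction, size, p and call of a rbCAPG value in the listed cell type are therefore not independent evidence. The rbPDI comparisons share the same control samples.

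Inflammatory signals such as cytokines and bacterial products act largely through the transcription factor NF-κB and through interferon and stress kinase pathways, which switch on a first wave of regulators within the cell. IRF1 is a factor that interferons and NF-κB induce and that activates genes of the antiviral and inflammatory response, and CEBPD is a C/EBP factor that cytokines induce in the acute phase response. MAFF is a small Maf protein that lacks an activation domain of its own and works as a partner of larger factors, NFE2L3 is one of the cap'n'collar factors that pair with small Maf proteins, ARNTL2 is a paralogue of the core clock protein BMAL1, and IER3 is a rapidly induced protein that feeds back on NF-κB and on cell survival. In the endometrium, the lining of the uterus, inflammatory mediators such as cytokines and prostaglandins take part in the preparation for pregnancy.

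The samples came from a 3D endometrium-on-a-chip, a microfluidic device in which primary bovine endometrial epithelial cells (bEECs) and stromal cells (bESCs) lay on opposite sides of a porous membrane. CAPG and PDI are proteins that the bovine conceptus secretes, and their recombinant bovine forms (rbCAPG and rbPDI, each at 1 µg/mL) or a PBS vehicle control (VC) flowed for 24 h over the bEECs alone, so bESCs met them only across the membrane. There were 6 groups of 3 samples (1 for each treatment in each cell type), and replicates 1 to 3 stood for 3 animals, each device holding both cell types of 1 animal. The cells came from abattoir tracts chosen as late-luteal by the look of the ovaries, were purified in culture and judged for purity by eye, and their RNA was amplified with SMART-Seq before sequencing. These were unsorted bulk samples, in which fewer cells of a type and less RNA per cell cannot be told apart.

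A library held between 10072851 and 44253149 counts in total, and the shallowest was animal 1 of bESCs with rbPDI. Levels are given as CPM, a gene's counts relative to the TMM-scaled total of its library, and 3 counts corresponded to 0.0557 to 0.261 CPM in a library. Because no transcript lengths were used, levels were compared between samples and not between genes. The labelled cell types were checked with marker genes whose identifiers were known, 12 of 22 in all. The summed level of 3 epithelial markers (MUC1, OCLN and FERMT1) was 342 to 942 CPM in bEECs and 4.86 to 11.7 CPM in bESCs, while that of 5 stromal markers (HAND2, ZEB1, VCAN, COL6A1 and NID1) was 233 to 425 CPM in bESCs and 6.89 to 47 CPM in bEECs. The identifiers of these markers came from the study's rbCAPG lists, so each marker read had been listed as altered by rbCAPG. Marker differences with rbCAPG are therefore not independent of that choice, and those with rbPDI share its control samples. Markers outside the lists could not be read. Several marker sums differed between treatments. In bEECs the epithelial markers summed to 342 to 564 CPM with VC, 819 to 867 CPM with rbCAPG and 768 to 942 CPM with rbPDI. Most of that sum was MUC1, with means of 318, 698 and 711 CPM in the same order. Means were 93.2, 103 and 105 CPM for OCLN and 17.8, 49.8 and 52.5 CPM for FERMT1 in bEECs. There the 5 stromal markers summed to 6.89 to 15.1 CPM with VC, 17.9 to 47 CPM with rbCAPG and 11.9 to 32.8 CPM with rbPDI, and 2 macrophage and monocyte markers (AIF1 and CD14) to 12.7 to 21 CPM, 44.7 to 58.4 CPM and 53 to 71.5 CPM. Endothelial markers (TEK and SELP) summed to 1.53 to 3.75 CPM, 11.9 to 15.9 CPM and 5.07 to 37.4 CPM in the same order. In bESCs AIF1 had 0 counts in all 3 VC libraries and was at most at 0.082 CPM elsewhere, and the 2 macrophage markers overlapped between treatments. The endothelial sum in bESCs was 116 to 214 CPM with VC, 316 to 646 CPM with rbCAPG and 82.2 to 518 CPM with rbPDI, nearly all of it SELP, so that the rbCAPG libraries lay above the controls. The epithelial sum in bESCs was 4.86 to 8.06, 5.33 to 11.7 and 7.84 to 10.8 CPM in the same order. The part of these cells in the results below was not tested.

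All 6 genes passed the filter on low counts, which left 17931 genes. A gene was called where its adjusted p was under 0.05 and its log2 fold change was beyond 1 in either direction, with p from edgeR's quasi-likelihood test adjusted over the 17931 genes. In bESCs, IER3 rose with rbPDI, and it was the 1 gene of the 6 that was called in that comparison, where 0.178% of all tested genes were called. None was called with rbCAPG in bEECs, with rbPDI in bEECs or with rbCAPG in bESCs, where 0.513%, 0.809% and 0.0948% of all genes were called. At an unadjusted p under 0.05, the edgeR counts were 4 of 5 genes with rbCAPG in bEECs, 5 of 5 with rbPDI in bEECs, and 6 of 6 with either protein in bESCs, against 7.21%, 8.34%, 2.74% and 5.3% of all genes, the last 2 for rbCAPG and rbPDI in bESCs. ARNTL2 was left out of the bEEC counts, since no bEEC library held more than 2 of its counts.

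The animal was then added as a block within each cell type, because libraries of the same animal deviated together from their group means. With this block, 2 of 5 genes were called with rbCAPG in bEECs (CEBPD and NFE2L3), and the same 2 were called with rbPDI, where 2.19% and 2.96% of all genes were called. In bESCs, 4 of 6 were called with rbCAPG (IRF1, MAFF, NFE2L3 and IER3) and 6 of 6 with rbPDI, against 0.48% and 1.05% of all genes. DESeq2 without the block called 3 of 5 genes with rbCAPG in bEECs (CEBPD, NFE2L3 and IER3), 2 of 5 with rbPDI in bEECs (CEBPD and NFE2L3), 4 of 6 with rbCAPG in bESCs (IRF1, MAFF, ARNTL2 and IER3) and 5 of 6 with rbPDI in bESCs (all but CEBPD), where it called 1.54%, 2.17%, 0.449% and 1.02% of all genes. The study's lists were also made with DESeq2. These DESeq2 calls with rbCAPG are the same genes as in those lists, so they repeat the choice. For rbCAPG calls in a listed cell type, the shares of all genes are no like-for-like comparison.

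**Figure D1:**
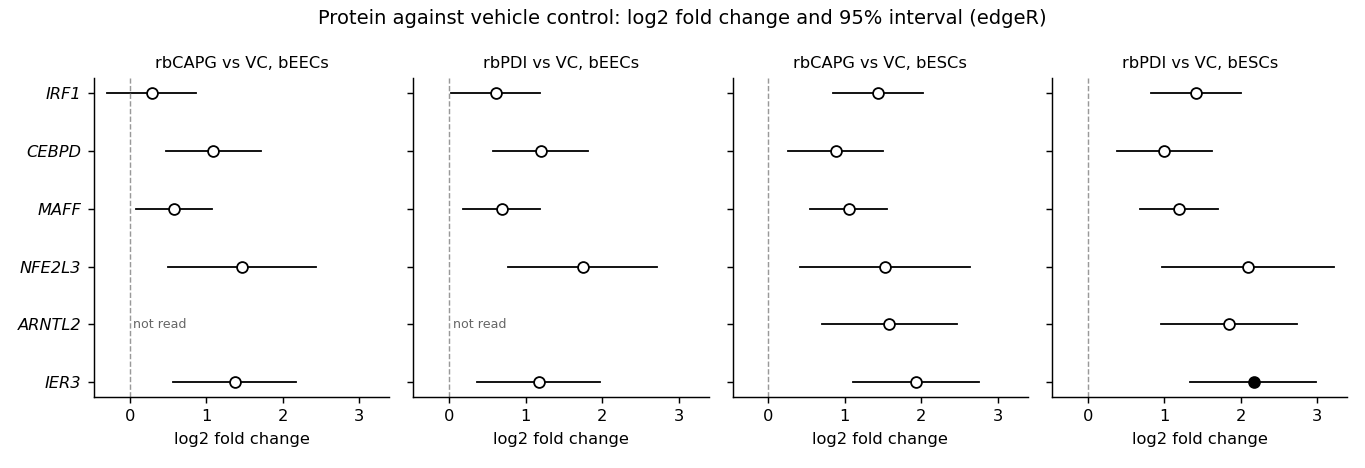
Log2 fold change (points) and 95% interval (lines) of each gene against VC, from edgeR's fit to all 18 libraries, for each protein and cell type. The filled point marks the called value, IER3 with rbPDI in bESCs at 2.17, and every other point lies above 0 without being called. ARNTL2 was not read in bEECs, where no library held over 2 counts.

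Without any added protein, 4 of the 6 genes differed between the cell types, in a comparison where 38.5% of all genes were called. NFE2L3 was at 27.9 ± 1.2 CPM in bEECs and 0.693 ± 0.461 CPM in bESCs (SD, n = 3 each), a log2 difference of 5.40 (SE 0.57, edgeR adjusted p = 1.06e-06). IER3 was also higher in bEECs, at 1062 ± 375 against 310 ± 118 CPM (log2 difference 1.78, SE 0.39, edgeR adjusted p = 0.00127). CEBPD was lower in bEECs, at 98.7 ± 23.4 against 228 ± 71.2 CPM (log2 difference -1.21, SE 0.29, edgeR adjusted p = 0.00296). ARNTL2 had 0 counts in the 3 bEEC libraries with VC and 119, 237 and 169 counts in the 3 bESC libraries, which makes it at least 49.7-fold lower in bEECs when 3 counts per library are taken as the floor (edgeR adjusted p = 3.26e-07). IRF1 and MAFF were not called, with log2 differences of -0.05 (95% interval -0.63 to 0.53) and -0.23 (95% interval -0.73 to 0.27), and their libraries overlapped between the cell types.

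**Figure D2:**
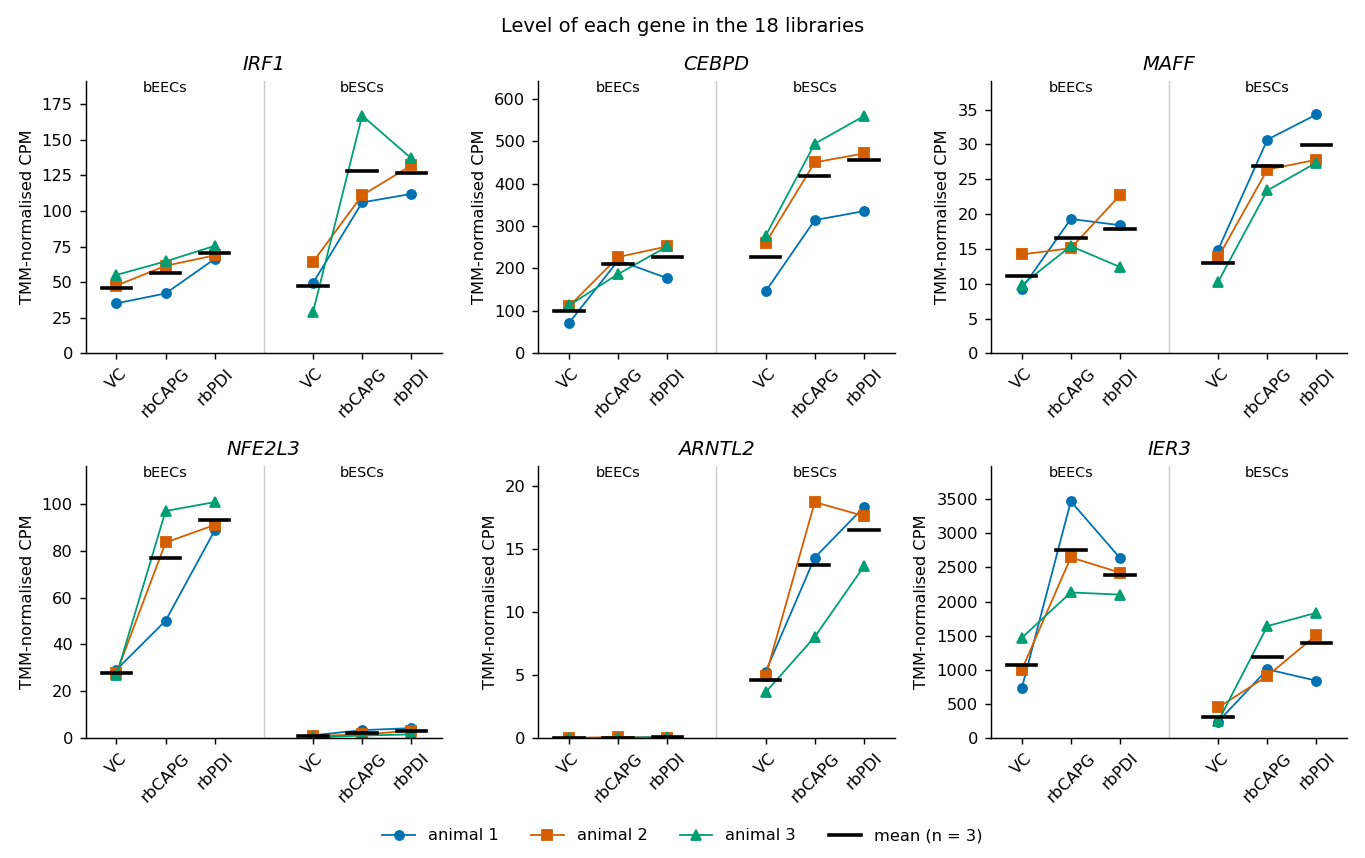
TMM-normalised CPM (linear axis from 0) of each gene in the 18 libraries, with lines joining the libraries of 1 animal within a cell type and black bars for the mean of 3. NFE2L3 sits high in bEECs and ARNTL2 in bESCs, and in both cell types the protein-treated points of an animal lie above its VC point wherever the gene was read.

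IRF1, the interferon-linked factor, had its treated libraries clear of the controls in bESCs under both proteins and in bEECs under rbPDI alone. In bEECs its level was 35.1, 47.6 and 55.1 CPM with VC in animals 1, 2 and 3, then 42.1, 61.5 and 64.6 CPM with rbCAPG and 66.3, 68.8 and 75.5 CPM with rbPDI. The rbCAPG libraries overlapped those with VC, whereas all 3 rbPDI libraries lay above all VC and all rbCAPG libraries. Its log2 fold change in bEECs was 0.29 with rbCAPG (SE 0.27, edgeR adjusted p = 0.999) and 0.61 with rbPDI (SE 0.28, edgeR adjusted p = 0.556), and neither was called in any of 17 alternatives. In bESCs the level was 49.4, 64.2 and 29 CPM with VC, 106, 111 and 167 CPM with rbCAPG and 112, 132 and 137 CPM with rbPDI. Here each treated library exceeded each VC library, and animal 3 combined the lowest VC value with the highest values under both proteins. IRF1 differed from VC in bESCs by a log2 fold change of 1.43 with rbCAPG (SE 0.28, edgeR adjusted p = 0.0832) and 1.42 with rbPDI (SE 0.28, edgeR adjusted p = 0.0563). With the animal as a block in edgeR, the adjusted p was 0.0273 with rbCAPG (alternatives from 0.000104 to 1) and 0.0148 with rbPDI (alternatives from 7.68e-05 to 1). Leaving out animal 2 of bESCs with VC, the highest control, also brought both past the threshold (edgeR adjusted p = 0.0439 with rbCAPG and 0.0293 with rbPDI). The ranges over alternatives, here and for the other genes, include a test against a minimum fold change. That test asks whether a change lies beyond the log2 threshold of 1, so its p is not a p for any change at all. In a RefSeq annotation of another bovine assembly than the one used for counting, IRF1 overlaps RAD50. Whether they overlap in the annotation used for counting was not checked. The libraries were counted with no strand option stated, so reads from any shared stretch could not be assigned to one gene with certainty. Across the 6 groups the order of mean levels was bEEC VC, bESC VC, bEEC rbCAPG, bEEC rbPDI, bESC rbPDI and bESC rbCAPG, from 45.9 to 128 CPM, and the only neighbours whose libraries did not overlap were bEEC rbCAPG with bEEC rbPDI and bEEC rbPDI with bESC rbPDI.

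CEBPD, the acute phase factor, had its treated libraries clear of the controls with either protein in both cell types. In bEECs it was at 71.7, 111 and 113 CPM with VC, at 219, 227 and 187 CPM with rbCAPG and at 177, 252 and 252 CPM with rbPDI. The treated libraries all lay above the controls, with the closest approach between animal 3 with VC and animal 1 with rbPDI. For CEBPD in bEECs this gave log2 fold changes of 1.09 with rbCAPG (SE 0.29, edgeR adjusted p = 0.149) and 1.20 with rbPDI (SE 0.29, edgeR adjusted p = 0.0735). With the animal as a block both were called by edgeR, at an adjusted p of 0.00805 (alternatives from 0.00805 to 1) and 0.0035 (alternatives from 0.00297 to 1). In bESCs, where the control level was higher, the values were 146, 260 and 277 CPM with VC, 314, 450 and 494 CPM with rbCAPG and 335, 471 and 559 CPM with rbPDI. Animal 1 was the lowest in each of these 3 groups, and the groups of treated libraries did not overlap the controls. In this cell type the changes in CEBPD were 0.88 on the log2 scale with rbCAPG (SE 0.29, edgeR adjusted p = 0.994) and 1.00 with rbPDI (SE 0.29, edgeR adjusted p = 0.318). With the block, edgeR called the rbPDI value (adjusted p = 0.0213, alternatives from 0.0213 to 1) and not the rbCAPG value (adjusted p = 0.0755, alternatives from 0.0755 to 1).

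MAFF, the small Maf gene, had its treated libraries clear of the controls in bESCs with either protein and in bEECs with rbCAPG alone. In bEECs it was at 9.28, 14.2 and 9.81 CPM with VC, 19.3, 15.1 and 15.4 CPM with rbCAPG and 18.4, 22.7 and 12.4 CPM with rbPDI. The rbCAPG libraries lay above the controls by a narrow margin, and animal 3 with rbPDI fell within the range of the controls. The log2 fold changes of 0.58 with rbCAPG (SE 0.24, edgeR adjusted p = 0.545) and 0.69 with rbPDI (SE 0.24, edgeR adjusted p = 0.311) were not called in any of 17 alternatives. In bESCs MAFF was at 14.9, 13.8 and 10.3 CPM with VC, 30.7, 26.4 and 23.4 CPM with rbCAPG and 34.3, 27.8 and 27.4 CPM with rbPDI. Every treated library was above every control, and animal 1 was highest and animal 3 lowest in each group. MAFF in bESCs thus had log2 fold changes of 1.05 with rbCAPG (SE 0.24, edgeR adjusted p = 0.207) and 1.20 with rbPDI (SE 0.24, edgeR adjusted p = 0.0638). Both were called with the block, at an edgeR adjusted p of 0.0231 (alternatives from 0.00496 to 1) and 0.00561 (alternatives from 0.000241 to 1).

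NFE2L3, a potential partner of MAFF, was mostly epithelial. In bEECs its VC values were 29.2, 27.7 and 26.8 CPM, the tightest control group of the set with a coefficient of variation of 4.29%, against 50.2, 83.7 and 97.2 CPM with rbCAPG and 88.9, 91.2 and 101 CPM with rbPDI. No treated library came near the controls, and with rbCAPG animal 1 stood below the other two. Fitted log2 fold changes of NFE2L3 in bEECs were 1.47 with rbCAPG (SE 0.46, edgeR adjusted p = 0.263) and 1.75 with rbPDI (SE 0.46, edgeR adjusted p = 0.103). The block gave edgeR adjusted p-values of 0.00349 (alternatives from 0.00349 to 1) and 0.000535 (alternatives from 0.000535 to 1), and both were called. In bESCs the gene was near the lower limit of reading, with 25, 38 and 9 counts with VC, 121, 79 and 43 with rbCAPG and 48, 142 and 65 with rbPDI. These counts correspond to 1.1, 0.784 and 0.193 CPM, to 3.31, 1.47 and 0.992 CPM and to 4.17, 3.07 and 1.5 CPM. The rbCAPG group overlapped the controls through animal 3, and the rbPDI group did not overlap them. In bESCs they were 1.53 with rbCAPG (SE 0.52, edgeR adjusted p = 1) and 2.09 with rbPDI (SE 0.53, edgeR adjusted p = 0.182), with adjusted p-values under the block of 0.0293 (alternatives from 0.0293 to 1) and 0.00158 (alternatives from 0.00158 to 1). The low epithelial marker signal of the bESC libraries was also higher with the proteins for 2 of 3 markers. MUC1 in bESCs was at 0.0881, 0.124 and 0.321 CPM with VC, at 0.41, 0.612 and 0.369 CPM with rbCAPG and at 1.04, 0.648 and 0.74 CPM with rbPDI, all treated libraries above the controls (log2 fold changes 1.29 and 2.01, edgeR adjusted p = 0.894 and 0.0713). OCLN in bESCs was at 0.308, 0.227 and 0.257 CPM with VC, at 2.05, 1.04 and 0.992 CPM with rbCAPG (log2 fold change 2.37, edgeR adjusted p = 0.185) and at 0.261, 1.6 and 3.24 CPM with rbPDI, where it was called (log2 fold change 2.82, edgeR adjusted p = 0.0402). FERMT1 overlapped between treatments, with log2 fold changes of 0.27 and 0.24. Other epithelial markers (EPCAM, CDH1, KRT8 and KRT18) had no paired identifier and could not be read. The 3 markers came from the study's rbCAPG lists, so their signal with rbCAPG is not independent of that choice. The part of this signal in the bESC values of NFE2L3, a gene that is itself far higher in bEECs, was not tested.

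ARNTL2, the clock paralogue, was read only in bESCs. In bEECs it had 0 counts in 6 of 9 libraries and 2 counts in the other 3, which were 1 library with rbCAPG and 2 with rbPDI, so no change is given there. In bESCs it was at 5.24, 4.89 and 3.62 CPM with VC, 14.3, 18.7 and 8.01 CPM with rbCAPG and 18.3, 17.6 and 13.6 CPM with rbPDI. All treated libraries lay above all controls, and animal 3 was lowest in each group. ARNTL2 differed from VC by log2 fold changes of 1.58 with rbCAPG (SE 0.41, edgeR adjusted p = 0.489) and 1.85 with rbPDI (SE 0.42, edgeR adjusted p = 0.121). With the block the edgeR adjusted p was 0.0549 with rbCAPG (alternatives from 0.00102 to 1) and 0.0117 with rbPDI (alternatives from 2.05e-05 to 1), so that the rbPDI value alone was called.

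IER3, the early response gene, had the largest log2 fold changes of the set in bESCs in the fit without the block, while with the block NFE2L3 (2.18) exceeded it (2.12) for rbPDI. In bEECs its values were 725, 996 and 1466 CPM with VC, 3469, 2647 and 2133 CPM with rbCAPG and 2639, 2424 and 2101 CPM with rbPDI. The treated libraries lay above the controls, and the order of the animals turned round, since animal 3 was highest with VC and lowest with either protein. The log2 fold change was 1.37 with rbCAPG (SE 0.38, edgeR adjusted p = 0.174) and 1.17 with rbPDI (SE 0.38, edgeR adjusted p = 0.247), and the block did not bring either past the threshold (adjusted p = 0.0723, alternatives from 0.02 to 1, and 0.11, alternatives from 0.0629 to 1). In bESCs IER3 was at 240, 447 and 244 CPM with VC, 1005, 908 and 1640 CPM with rbCAPG and 838, 1510 and 1835 CPM with rbPDI. The lowest treated library, animal 1 with rbPDI, still exceeded the highest control. The log2 fold change was 1.93 with rbCAPG (SE 0.39, edgeR adjusted p = 0.098) and 2.17 with rbPDI (SE 0.39, edgeR adjusted p = 0.0279), and only the second was called. With the block both were called, at an edgeR adjusted p of 0.039 (alternatives from 0.000246 to 1) and 0.0127 (alternatives from 8.45e-06 to 0.446). The rbPDI call for IER3 without the block was lost when 1 bESC library was left out, namely animal 1 with VC (edgeR adjusted p = 0.195), animal 3 with VC (0.229), animal 2 with rbPDI (0.099) or animal 3 with rbPDI (0.137). Of the 18 values of IER3, 16 were not whole numbers, the counting having divided read pairs with several placements or several overlapping genes, compared with 0 of 18 for ARNTL2.

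Each protein-treated library was also set against the control of the same animal. Of the 66 such ratios of CPM (5 genes in bEECs and 6 in bESCs, each with 2 proteins and 3 animals), 66 were above 1, from 1.06 for MAFF with rbCAPG in bEECs of animal 2 to 7.8 for NFE2L3 with rbPDI in bESCs of animal 3. For comparison, 18.5% and 19.8% of all genes were higher in each of the 3 animals with rbCAPG and with rbPDI in bEECs, and 9.72% and 13.3% in bESCs. Libraries that did not overlap, with all treated above all VC, were found for 4 of 5 genes with each protein in bEECs (8.72% and 8.06% of all genes) and for 5 of 6 with rbCAPG and 6 of 6 with rbPDI in bESCs (3.02% and 4.1% of all genes). The median log2 fold change over the genes read was 1.09 with rbCAPG and 1.17 with rbPDI in bEECs, and 1.48 and 1.63 in bESCs, beside medians of all genes of 0.02, -0.01, -0.01 and 0.00. In these ratios, counts and medians, the rbCAPG values of a gene in its listed cell type were part of how it was chosen. The shares and medians of all genes were not chosen in this way, so they are no like-for-like comparison for those values. The rbPDI values in that cell type rest on the same control libraries, so they are not fully independent of the choice either.

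The animals did not respond in the same order from gene to gene. With rbCAPG in bEECs, the ratio for IER3 was 4.78 in animal 1, 2.66 in animal 2 and 1.45 in animal 3, while for NFE2L3 it was 1.72, 3.02 and 3.62. In bESCs the ratio for IER3 with rbCAPG was 4.18, 2.03 and 6.73, and that for IRF1 was 2.14, 1.73 and 5.77, so animal 3 gave the largest ratio for both. The ratios for ARNTL2 with rbPDI in bESCs were close together at 3.48, 3.6 and 3.76, as were those for CEBPD with rbPDI in bEECs at 2.47, 2.27 and 2.22.

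**Figure D3:**
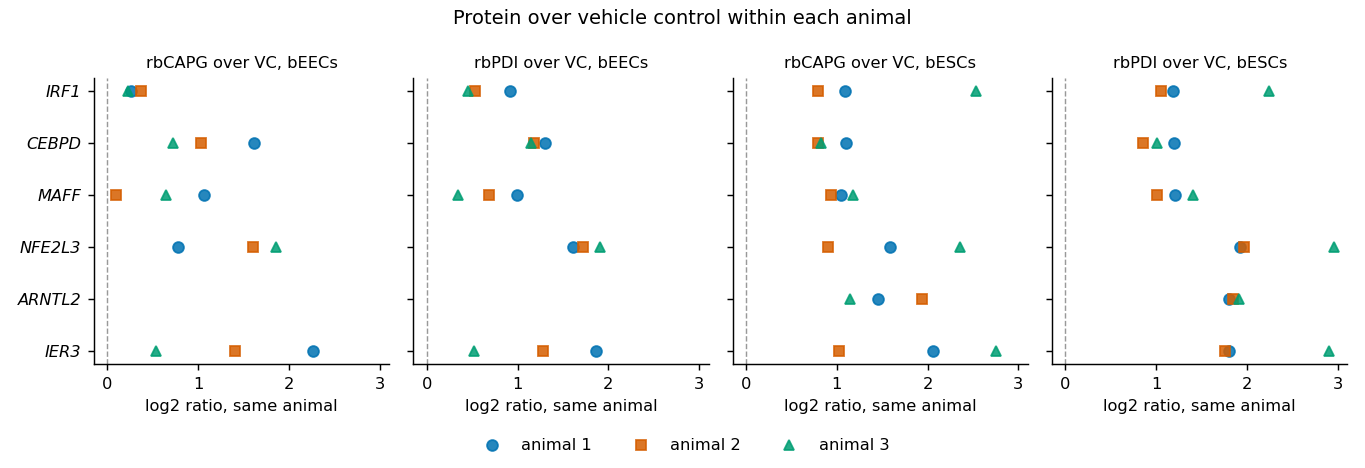
Log2 ratio of CPM, protein over VC, within each animal for each gene, cell type and protein. All 66 points lie above 0, and animal 3 (triangles) lies far to the right for IRF1, NFE2L3 and IER3 in bESCs, while in bEECs it has the smallest ratio for IER3.

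rbPDI and rbCAPG were compared directly at the same dose and time, a comparison that uses no VC library. None of the genes was called in bEECs or bESCs by edgeR or by DESeq2, 0 had an unadjusted p under 0.05 with edgeR (0.574% of all genes in bEECs and 1.78% in bESCs), and 0% of all genes were called in either cell type by either tool. In bEECs the log2 difference, rbPDI minus rbCAPG, was 0.32 for IRF1 (95% interval -0.26 to 0.91), although its 3 rbPDI libraries lay above the 3 rbCAPG libraries, which held for 2.14% of all genes. It was 0.28 for NFE2L3 (95% interval -0.67 to 1.23) and -0.20 for IER3 (95% interval -1.0 to 0.59). The intervals for CEBPD and MAFF were -0.51 to 0.72 and -0.40 to 0.60. In bESCs the largest difference was 0.56 for NFE2L3 (95% interval -0.46 to 1.59), and that of IRF1 was -0.01 (95% interval -0.59 to 0.57). The bESC intervals for CEBPD, MAFF, ARNTL2 and IER3 were -0.49 to 0.73, -0.35 to 0.65, -0.59 to 1.13 and -0.56 to 1.03. All of these intervals include 0, and none of them is narrow enough to show that the proteins acted alike. With the animal as a block the intervals also included 0, except that of NFE2L3 in bESCs, where the log2 difference was 0.67 (SE 0.25, 95% interval 0.13 to 1.22) with an unadjusted p of 0.0188 and an adjusted p of 1 in edgeR. NFE2L3 was higher with rbPDI than with rbCAPG in bESCs of each of the 3 animals.

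The change in bEECs was set against the change in bESCs with an interaction term. None of the 5 genes read in both cell types was called for either protein, where edgeR called 0.0669% of all genes for rbCAPG and 0.0948% for rbPDI, DESeq2 0.31% and 0.506%, and edgeR with the block 0.223% and 0.441%. IRF1 had the largest gap with rbCAPG, a log2 difference of -1.14, bEECs minus bESCs (95% interval -1.97 to -0.32), with an unadjusted p of 0.0096 in edgeR and an adjusted p of 1, and it was the only 1 of the 5 under 0.05 before adjustment, as were 3.42% of all genes. IRF1 stood in the study's stromal rbCAPG list and not in the epithelial one. A larger rbCAPG change in bESCs was thus part of how it was chosen, and the share of all genes is no like-for-like comparison. MAFF also stood in the stromal list alone, and CEBPD and NFE2L3 in the epithelial list alone. With rbPDI the difference for IRF1 was -0.81 (95% interval -1.63 to 0.01). Of the 5 genes, 0 had an unadjusted p under 0.05 in edgeR, as against 4.72% of all genes. The block gave IRF1 -1.15 with rbCAPG (95% interval -1.94 to -0.36, edgeR adjusted p = 0.345) and -0.79 with rbPDI (95% interval -1.57 to -0.01, edgeR adjusted p = 0.52). IER3 differed by -0.56 with rbCAPG (95% interval -1.68 to 0.56) and by -1.0 with rbPDI (95% interval -2.12 to 0.12). CEBPD stayed close to 0 with either protein, at 0.21 (95% interval -0.65 to 1.08) and 0.20 (95% interval -0.66 to 1.06).

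**Figure D4:**
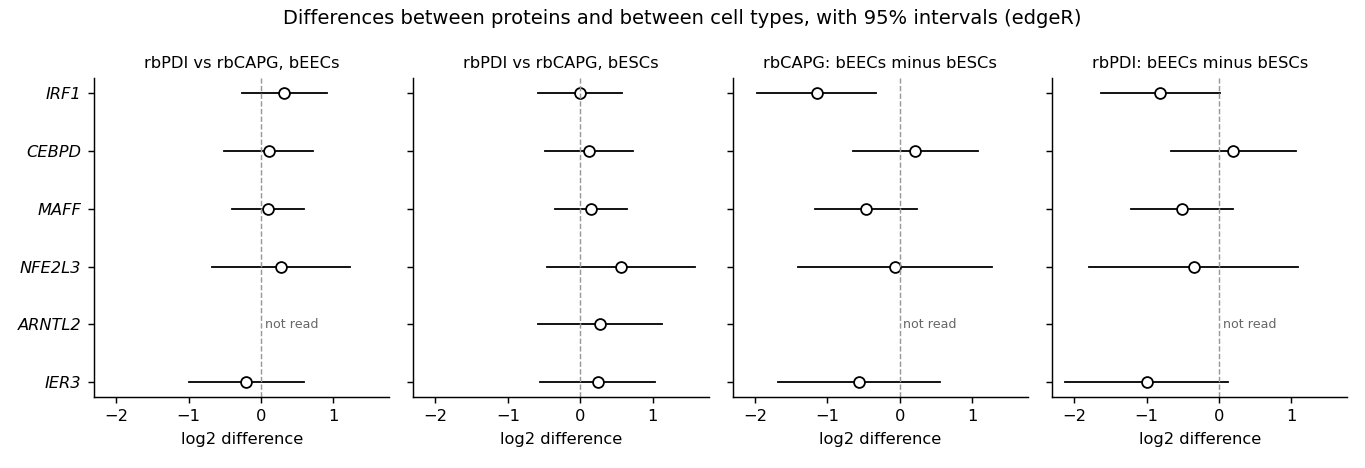
Log2 differences with 95% intervals from edgeR without the block between the proteins (first 2 panels) and between the changes in bEECs and bESCs (last 2 panels). All intervals cross 0 except that of IRF1 for rbCAPG in bEECs minus bESCs, at -1.14, which was not past the threshold after adjustment. IRF1 stood in the stromal rbCAPG list alone, so that gap is not independent of how it was chosen.

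Over the alternatives the log2 fold changes against VC kept their sign, while the calls changed with the model. The widest run belonged to NFE2L3 with rbCAPG in bESCs, from 0.92 without animal 1 with rbCAPG to 1.95 without animal 1 with VC, around 1.53. For NFE2L3 with rbPDI in bEECs the log2 fold change moved only from 1.69 to 1.78 over 17 alternatives, while the adjusted p went from 0.000535 to 1. For ARNTL2 with rbPDI in bESCs it moved from 1.70 to 1.97 over 18 alternatives, and the adjusted p from 2.05e-05 to 1. These ranges of adjusted p include the test against a minimum fold change, so their ends need not answer the same question. For IER3 with rbPDI in bESCs, the upper end of 0.446 came from that test in edgeR.

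**Figure D5:**
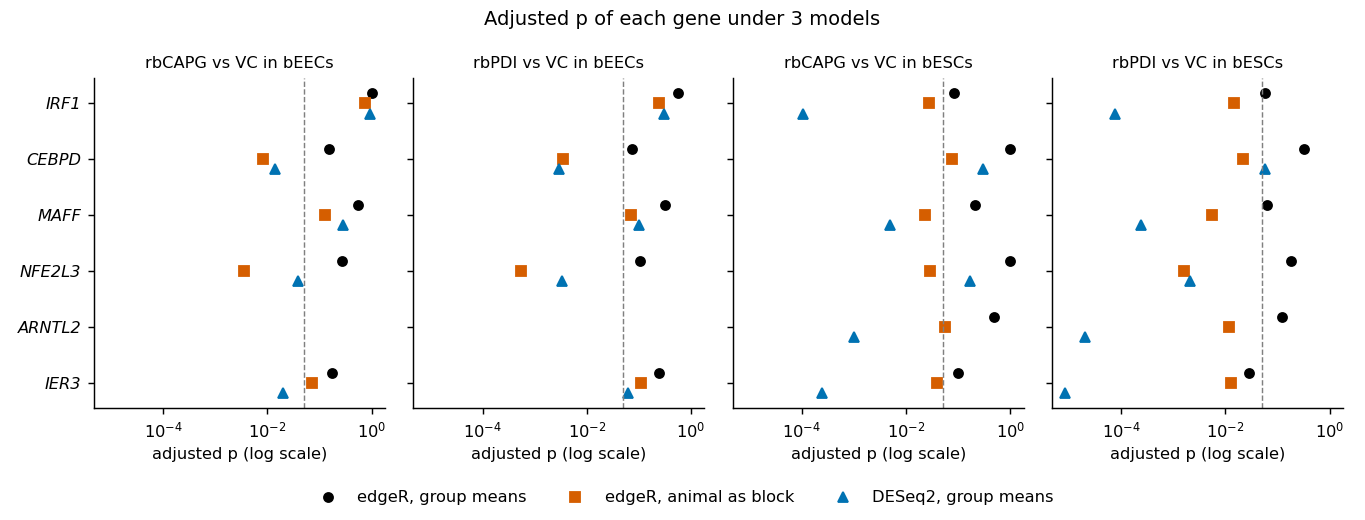
Adjusted p (log axis) of each gene against VC in edgeR without the animal (circles), edgeR with the animal as a block within cell type (squares) and DESeq2 without the animal (triangles). The dashed line is 0.05, and only IER3 with rbPDI in bESCs has its circle to the left of it. ARNTL2 was not read in bEECs.

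The other transcriptional regulators in the study's rbCAPG lists were read as a list of 12, which again was chosen on these samples. edgeR called 4 of them higher with rbCAPG in bEECs and the same 4 with rbPDI in bEECs, namely NFKB1 and NFKB2, which encode NF-κB subunits, NFKBIZ, which encodes a nuclear cofactor of NF-κB, and RIPPLY3, a transcriptional corepressor. In bESCs NFKBIZ was the only 1 of the 12 called, with either protein, where 0.0948% (rbCAPG) and 0.178% (rbPDI) of all genes were called. No member of the list was called lower, and ZNF584 had log2 fold changes of -1.03 and -1.16 in bEECs (edgeR adjusted p = 0.175 with rbCAPG and 0.0782 with rbPDI). With the animal as a block the calls in bEECs grew to 9 higher with rbCAPG and to 8 higher and 1 lower with rbPDI. The share of all genes called in bEECs grew too, from 0.513% to 2.19% with rbCAPG and from 0.809% to 2.96% with rbPDI. In bESCs the block gave 1 with rbCAPG, as without it, and 2 with rbPDI, against 0.48% and 1.05% of all genes. Because the list was chosen on these samples, the shares of all genes are no like-for-like comparison. HAND2 and ZEB1 in this list are also stromal markers and part of the stromal sum given above. With VC, rbCAPG and rbPDI in bEECs, mean HAND2 was at 0.114, 0.476 and 0.236 CPM. Mean ZEB1 was at 2.22, 7.19 and 7.01 CPM in the same order. The median log2 fold change of the list, with genes at or under 3 counts in one group set at their bound, was 1.61 with rbCAPG and 1.52 with rbPDI in bEECs and 0.18 and 0.07 in bESCs.

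NFKBIZ was at 13.1, 19.4 and 16.7 CPM with VC in bEECs, at 60.5, 80.4 and 81.6 CPM with rbCAPG and at 70.1, 78.2 and 79.8 CPM with rbPDI. It rose by a log2 fold change of 2.18 with rbCAPG (SE 0.31, edgeR adjusted p = 0.00119) and 2.21 with rbPDI (SE 0.31, edgeR adjusted p = 0.000862). In bESCs it rose from 28, 38.7 and 36.8 CPM to 71.6, 135 and 135 CPM with rbCAPG (log2 fold change 1.72, edgeR adjusted p = 0.0423) and to 61.3, 101 and 147 CPM with rbPDI (log2 fold change 1.58, edgeR adjusted p = 0.0456). NFKB1 rose in bEECs from 30.7 ± 2.93 to 67 ± 13.6 CPM with rbCAPG and 74.8 ± 12.6 CPM with rbPDI (SD, n = 3, edgeR adjusted p = 0.0449 and 0.0119), and NFKB2 from 27 ± 2.65 to 69.5 ± 8.73 and 77.4 ± 11.9 CPM (SD, n = 3, edgeR adjusted p = 0.0397 and 0.0119). RIPPLY3 was at most at 0.032 CPM with VC in bEECs. It was at 0.703, 0.805 and 2.17 CPM with rbCAPG and at 1.24, 1.16 and 5.83 CPM with rbPDI. Counted from a floor of 3 counts per library, the group mean was at least 13.3-fold higher with rbCAPG and 29.7-fold higher with rbPDI. Animal 3 raised both means, so these bounds do not hold for each library.

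A second list held 5 genes known as targets of factors in the set: NOS2 and CCL5 for IRF1, and IL6, PTGS2 and CSF3 for the C/EBP family. It was drawn from the same rbCAPG lists, and the text makes no link between a factor's level and a target's. edgeR called CCL5 and PTGS2 higher with rbCAPG in bEECs, IL6 and PTGS2 with rbCAPG in bESCs, and CCL5, IL6 and PTGS2 with rbPDI in both cell types, so 2, 2, 3 and 3 of 5, and 0 lower. With the block 4 of 5 were called with rbCAPG in bEECs and 5 of 5 in each of the other comparisons with VC. Of all genes, 0.513% with rbCAPG and 0.809% with rbPDI were called in bEECs without the block, and 0.0948% and 0.178% in bESCs. With the block these shares were 2.19% and 2.96% in bEECs and 0.48% and 1.05% in bESCs. Each of the 5 genes had been listed as altered by rbCAPG, so these shares are no like-for-like comparison. The list's median log2 fold change, with genes at or under 3 counts in one group set at their bound, was 3.11 with rbCAPG and 3.31 with rbPDI in bEECs and 3.99 and 4.18 in bESCs. The inflammatory cytokine gene IL6 was at 204 ± 85.3 CPM with VC in bEECs and 1329 ± 377 and 1918 ± 1347 CPM with rbCAPG and rbPDI (SD, n = 3). In bESCs it went from 110 ± 83.5 to 1484 ± 339 and 2004 ± 631 CPM (SD, n = 3, edgeR adjusted p = 0.0482 and 0.0164). PTGS2, the inducible enzyme of prostaglandin synthesis, rose in bESCs by log2 fold changes of 3.99 with rbCAPG (SE 0.57, edgeR adjusted p = 0.0101) and 3.80 with rbPDI (SE 0.57, edgeR adjusted p = 0.00889). The chemokine gene CCL5 rose in bEECs from 5.3 ± 1.39 to 83.3 ± 33.6 CPM with rbCAPG and 363 ± 176 CPM with rbPDI (SD, n = 3, edgeR adjusted p = 0.0106 and 0.00037). Another list, of 45 family members and partners of the 6 genes, was not analysed here because none of its symbols was paired with an identifier.

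The genes whose pattern was most like that of each member were sought by Pearson correlation of log2 CPM over the 18 libraries, after each cell type's mean had been taken off. These points share animals, treatments and control libraries, so the coefficients are a description. Only genes with a symbol in the study's rbCAPG lists could be named, so every gene named here had been listed as altered by rbCAPG. For CEBPD the most similar of all 17930 genes was NFKBIZ (r = 0.94), followed by RNF125 and ALOX12 (both 0.92). For IER3 it was MMP13 (0.91), followed by IL6 (0.91) and HEXIM2 (0.89), and for NFE2L3 it was IL37 (0.92), with CCRL2 (0.90) at rank 4 and GJB6 (0.89) at rank 10. For the other 3, genes without a symbol ranked first. Of the genes with a symbol, IRF1 was most like IL6 (0.88, rank 4), GPR84 (0.86, rank 5) and IER3 (0.85, rank 7). MAFF was in the same sense most like CXCL16 (0.89, rank 2), PDXK (0.87, rank 5) and AHI1 (0.86, rank 7). ARNTL2 was most like NOS2 (0.83, rank 4), TNIP1 (0.81, rank 6) and IL37 (0.81, rank 7). Within the set, r ranged from 0.50 for CEBPD with NFE2L3 to 0.87 for CEBPD with IER3, and the bEEC values of ARNTL2, at or near 0 counts, entered its coefficients.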

How the data were processed

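RNA sequencing libraries of 18 samples (6 groups of 3) were read from 1 table of estimated counts per Ensembl gene, deposited without normalization. The authors had used Trimmomatic for trimming, STAR for alignment and featureCounts for counting on a bovine assembly, dividing pairs with several placements or overlapping several genes into fractions, with no strand option stated. Of all deposited values 23.3% were not whole, so values were rounded. In R 4.3.3, edgeR 4.0.16 (TMM, filterByExpr, quasi-likelihood F-test, 1 mean per group over all 18 samples) tested 17931 genes with Benjamini-Hochberg adjustment. A call needed an adjusted p under 0.05 and a log2 fold change beyond 1. DESeq2 1.42.0 (local fit) was an alternative, beside other filters, scalings, subsets, call rules, unrounded values and the animal as a block. Code was tested on simulated data. Replicate numbers paired samples by animal: deviations of same-numbered libraries correlated at 0.311 to 0.624 in bEECs and 0.129 to 0.668 in bESCs, so blocked values stand beside results. No 2 libraries of the same group agreed within sampling noise, and libraries of different groups were not compared in this way. Library totals of 10072851 to 44253149 counts set the precision of low counts, and a floor of 3 counts was used for counting error only. Symbols came from the study's supplementary lists (190 of 245 identifiers), whose fold changes were not used. The 6 genes and the other lists were chosen with earlier results of these data known. Beyond the 6 genes, genes of the regulator and target lists were named where called in a treatment comparison, and for each of the 6 the 3 genes with a symbol and the highest correlation. With 3 samples a group, an exact permutation test of 1 gene could not go below 0.1 and was not used. A planned item of the target list is not reported here.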

Additional observations from a re-analysis of the deposited data

How the results depend on the processing

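The number of the 6 genes called against VC was 0 with rbCAPG in bEECs, 0 with rbCAPG in bESCs, 0 with rbPDI in bEECs and 1 with rbPDI in bESCs, and depended on the model. In that order it was 3, 4, 2 and 5 with DESeq2, 2, 4, 2 and 6 with the replicate block within cell type, and 1, 1, 2 and 5 with the replicate block across cell types. Without a filter on low counts it was 1 in bESCs with rbCAPG, 1 in bEECs with rbPDI and 2 in bESCs with rbPDI. In bESCs with rbPDI it was 2 with DESeq2's size factors, 2 with at least 10 counts in at least 9 samples, and 0 with a test against a minimum fold change. A fit to the 9 samples of one cell type gave 1 with rbCAPG and 2 with rbPDI in bEECs and 0 with rbPDI in bESCs, and a fit to the 6 samples compared gave 1, 1 and 0. Leaving out each sample in turn gave 0 to 1 with rbCAPG and 0 to 2 with rbPDI in bESCs, 0 to 0 in bEECs, and 4 to 4 between the cell types with VC. Leaving out the 3 bESC libraries of animal 1 together, an alternative chosen after seeing the data, gave 0 with rbPDI in bESCs. Over all genes the calls in the same 4 comparisons were 92, 17, 145 and 32, against 275, 71, 389 and 176 with DESeq2 and 392, 86, 531 and 189 with the block within cell type. The cause of these moves was not tested. The DESeq2 calls with rbCAPG fell on the genes of the study's lists, which were themselves made with DESeq2. Some small differences that were not called turned sign. With 1 library left out, NFE2L3, bEECs minus bESCs, ran from -0.49 to 0.55 for rbCAPG and from -0.75 to 0.15 for rbPDI, and for rbCAPG it was 0.02 with the block across cell types and 0.13 without animal 1 of bESCs. IRF1 ran from -0.30 to 0.21 between the cell types with VC and from -0.15 to 0.21 for rbPDI minus rbCAPG in bESCs. For rbPDI minus rbCAPG, MAFF ran from -0.11 to 0.31 in bEECs, and in bESCs CEBPD from -0.07 to 0.28, ARNTL2 from -0.03 to 0.55 and IER3 from -0.01 to 0.52. The log2 fold changes against VC kept their direction in all alternatives run. CEBPD between the cell types with VC lost its call against a minimum fold change (adjusted p = 0.261, edgeR), and IER3 with rbPDI in bESCs there (0.446), in the fits to 9 (0.179) and 6 samples (0.312) and without animal 1 of bESCs (0.135). Depth limits NFE2L3 in bESCs, at 9 to 142 counts, and ARNTL2 in bEECs, at 0 to 2.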
